A study of Mus musculus with 7 samples.

Results

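The genes described here are 10 transcription factors of the basic helix-loop-helix (bHLH) family: Neurod1, Neurod2, Neurod6, Bhlhe22, Bhlhe40, Sim1, Npas1, Npas3, Tcf4 and Tcf12. They were taken by symbol from a gene list of 32285 rows, and each symbol matched 1 row. Their RNA was counted in nuclei of the posterolateral cortical amygdala (plCoA), an olfactory part of the amygdala, from male C57BL6J mice 8 weeks old. Tissue of several mice was pooled for each replicate of the anterior domain (aplCoA) or the posterior domain (pplCoA), and the 4 aplCoA and 3 pplCoA libraries gave 3 biological replicates per domain, because the 2 libraries of aplCoA replicate 1 were summed. No transgene is named for either group, and all mice were kept alone and deprived of sensory stimuli before they were killed in the dark period under ketamine and xylazine, which both domains therefore share. A count is a unique molecular identifier (UMI), which stands for 1 captured RNA molecule, and a level in CPM is the number of UMIs of a gene per 1000000 UMIs of the same group of nuclei.

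The bHLH domain lets a protein pair with another and bind short DNA words called E-boxes. Tcf4 and Tcf12 are E proteins, the widely expressed partners with which tissue-specific members pair, whereas the Neurod factors drive the differentiation of neurons and Bhlhe22 acts in excitatory neurons of the forebrain. Bhlhe40 is a repressor that responds to neuronal activity and to the circadian clock, and Sim1, Npas1 and Npas3 carry a second pairing domain named PAS.

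Libraries held 50812605 to 129624583 UMIs, and 46412 of the 52201 barcodes with at least 1000 genes were kept as nuclei, with a median of 5147 to 6754 UMIs per nucleus in a replicate. The median mitochondrial share of UMIs was 0.0241% to 0.0308% in aplCoA replicates and 0.00979% to 0.0165% in pplCoA replicates, and that of ribosomal protein genes was 0.312% to 0.398% and 0.233% to 0.283%. Neither share overlapped between the domains, and their part in the domain differences was not tested. Any pair of libraries shared 5 to 37 of these barcodes. Clusters were made without the 10 genes and named by marker lists, which gave 19705 glutamatergic and 5026 GABAergic nuclei. The summed level of the 7 glutamatergic markers was 2141 to 2448 CPM in glutamatergic nuclei and 145 to 318 CPM in GABAergic nuclei. The summed level of the 5 GABAergic markers was 44.7 to 205 CPM in glutamatergic nuclei and 9119.8 to 11006 CPM in GABAergic nuclei. A cluster of 145 nuclei within the glutamatergic class held Dlx6os1, Gad2, Gad1 and Erbb4 among its 10 leading genes and was left out, at 0.698% to 1.76% of the class in aplCoA replicates and 0% to 0.313% in pplCoA replicates, by a limit set after the data were seen.

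In the mouse genome build GRCm38, Neurod1 lies at chr2:79452521-79456751 on the minus strand, wholly inside the span of Cerkl on the same strand, so that reads of the 2 genes may be split uncertainly. Neurod2 lies at chr11:98325415-98329648, Neurod6 at chr6:55677822-55681263, and Tcf12 at chr9:71842688-72111871, all on the minus strand. Bhlhe22 lies at chr3:18054174-18057517 as a gene of 1 exon, Bhlhe40 at chr6:108660629-108666925, Sim1 at chr10:50894754-50989152, and Npas3, which spans 823499 bases, at chr12:53248677-54072175, all on the plus strand. Npas1 lies at chr7:16455721-16477728 on the minus strand.

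Neurod1 and Neurod2 followed Slc17a7 most closely of the 10 genes across glutamatergic clusters, as described further on, and the bases before their RefSeq starts are shown for that reason. RefSeq promoters were given for 7 of the 10 genes (none for Bhlhe22, Bhlhe40 and Tcf4). The sequences run 5′ to 3′ on the minus strand of GRCm38.p6, begin 250 bases before the RefSeq start, stop at the first base of an annotated exon, and carry each E-box (CANNTG, where N is any base) in capitals.
Neurod1, chr2:79456786-79456886: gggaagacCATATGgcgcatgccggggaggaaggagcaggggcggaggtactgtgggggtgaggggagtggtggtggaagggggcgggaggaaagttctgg
Neurod2, chr11:98329649-98329895: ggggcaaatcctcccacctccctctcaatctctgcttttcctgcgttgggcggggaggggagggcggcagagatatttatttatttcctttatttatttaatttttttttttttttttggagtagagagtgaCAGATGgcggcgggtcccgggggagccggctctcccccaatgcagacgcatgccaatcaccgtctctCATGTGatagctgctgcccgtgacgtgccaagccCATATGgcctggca
Both hold the E-box CATATG, at base -242 in Neurod1 and base -17 in Neurod2, counted from the RefSeq start. CATATG, looked for after the sequences were seen and the same on either strand, was in 3.46% of the 32851 promoters of 250 bases, while any CANNTG was in 66.2%. Neurod2 also held CAGATG at -118 and CATGTG at -51, Neurod6 CAAATG at -162 and CAGTTG at -132, and Sim1 CAGATG at -214 and at -53. The window of Npas3 held CAGCTG at -210, a word found in 13% of promoters, and that of Npas1 held no E-box. Of the 3 promoters given for Tcf12, 1 held CAGCTG at -240, 1 held CAAGTG at -149 and 1 held none.

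The levels of the 10 genes by class of nuclei are descriptions, since the classes were made from the same nuclei. Neurod1, Neurod2, Neurod6, Bhlhe22 and Sim1 were highest in glutamatergic nuclei, Npas1 was highest in GABAergic nuclei, Bhlhe40 was highest in 2 classes outside neurons, and Npas3, Tcf4 and Tcf12 had their highest levels in different classes. Neurod2 averaged 21.8 ± 1.64 CPM (SD, n = 6 replicates) in glutamatergic nuclei and 1.21 ± 0.631 CPM in GABAergic nuclei, and its glutamatergic range did not overlap that of the next class. Neurod1 averaged 8.18 ± 0.716 CPM and 0.754 ± 0.698 CPM in these classes. For Bhlhe22 the averages were 16.4 ± 2.70 CPM and 1.85 ± 1.17 CPM, the latter the lowest of all classes. Mature oligodendrocytes had 7.81 ± 3.37 CPM of Bhlhe22 and oligodendrocyte precursors 7.73 ± 2.12 CPM. Macrophages, which reached 20 nuclei in 4 replicates only, had 5 UMIs of Neurod1 and 7 of Bhlhe22 in all, and their wide ranges overlapped the glutamatergic ones for both genes. Neurod6 and Sim1 were sparse, at 1.84 ± 1.02 CPM and 2.48 ± 1.92 CPM over all glutamatergic nuclei.

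Free RNA was measured in empty droplets, the barcodes under 100 UMIs. Empty droplets held a median of 12.6 CPM of Neurod1 over the 7 libraries, 29.3 CPM of Neurod2 and 39.5 CPM of Bhlhe22, so the glutamatergic averages of these genes lay below the median of the free RNA. Of Neurod6 the droplets held 2.26 to 5.31 CPM, above its glutamatergic average, and of Sim1 0.333 to 3.77 CPM, which spans its glutamatergic average. The part of free RNA in these levels was not tested. With each nucleus thinned to 2000 UMIs, Neurod2 was seen in a median of 4.43% of glutamatergic nuclei (range 3.75% to 4.72% over replicates) and 0.323% of GABAergic nuclei (0.144% to 0.846%). Without thinning, the medians were 25.5% and 0.792%, at 10708 to 14579 and 6047 to 10614 median UMIs per nucleus. For Neurod1 the thinned medians were 1.65% and 0.116%, and for Bhlhe22 they were 2.99% and 0.428%.

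Npas1, known from cortical interneurons, averaged 20.2 ± 3.76 CPM in GABAergic nuclei, 12.5 ± 3.21 CPM in oligodendrocyte precursors (OPCs) and 1.01 ± 0.224 CPM in glutamatergic nuclei (SD, n = 6). At 2000 UMIs it was seen in a median of 3.57% of GABAergic nuclei, 2.56% of OPCs and 0.148% of glutamatergic nuclei. Its GABAergic and OPC ranges overlapped, and only the GABAergic replicates all lay above the 5.15 to 11.04 CPM of empty droplets.

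Npas3 had its highest level in astrocytes, at 4079 ± 316 CPM, followed by OPCs at 2053 ± 163 CPM and GABAergic nuclei at 1355 ± 179.8 CPM (SD, n = 6). None of these 3 ranges overlapped the next. Glutamatergic nuclei had 487 ± 79.8 CPM, a level like that of newly formed oligodendrocytes (NFOLs, 502 ± 114 CPM) and of mature oligodendrocytes (MOLs, 443 ± 56.9 CPM), whose ranges overlapped it, and microglia had 19.1 ± 9.64 CPM. Empty droplets held 330 to 771 CPM of Npas3, which spans the glutamatergic, NFOL and MOL averages. Bhlhe40 was likewise highest outside neurons, at 135 ± 62.6 CPM in arachnoid barrier cells (ABCs) and 73.2 ± 4.99 CPM in astrocytes, against 12.6 ± 4.98 CPM in glutamatergic and 3.47 ± 1.16 CPM in GABAergic nuclei. Empty droplets held 18.7 to 28.2 CPM of Bhlhe40, and only ABCs and astrocytes averaged above that.

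Of the E proteins, Tcf4 was highest in GABAergic nuclei, at 2236 ± 124 CPM, and lowest in glutamatergic nuclei, at 747 ± 97.3 CPM, and ABCs, at 542 ± 41.4 CPM. Its range in GABAergic nuclei overlapped that of vascular leptomeningeal cells (VLMCs, 1954 ± 122 CPM), and its glutamatergic range overlapped that of microglia (851 ± 30.0 CPM) but not that of ABCs. Tcf12 was highest in MOLs, at 975 ± 120 CPM, and lowest in glutamatergic nuclei, at 203 ± 12.6 CPM, a range that overlapped no other class (SD, n = 6). Empty droplets held 691 to 982 CPM of Tcf4 and 170 to 276 CPM of Tcf12, which spans the glutamatergic averages.

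**Figure D1:**
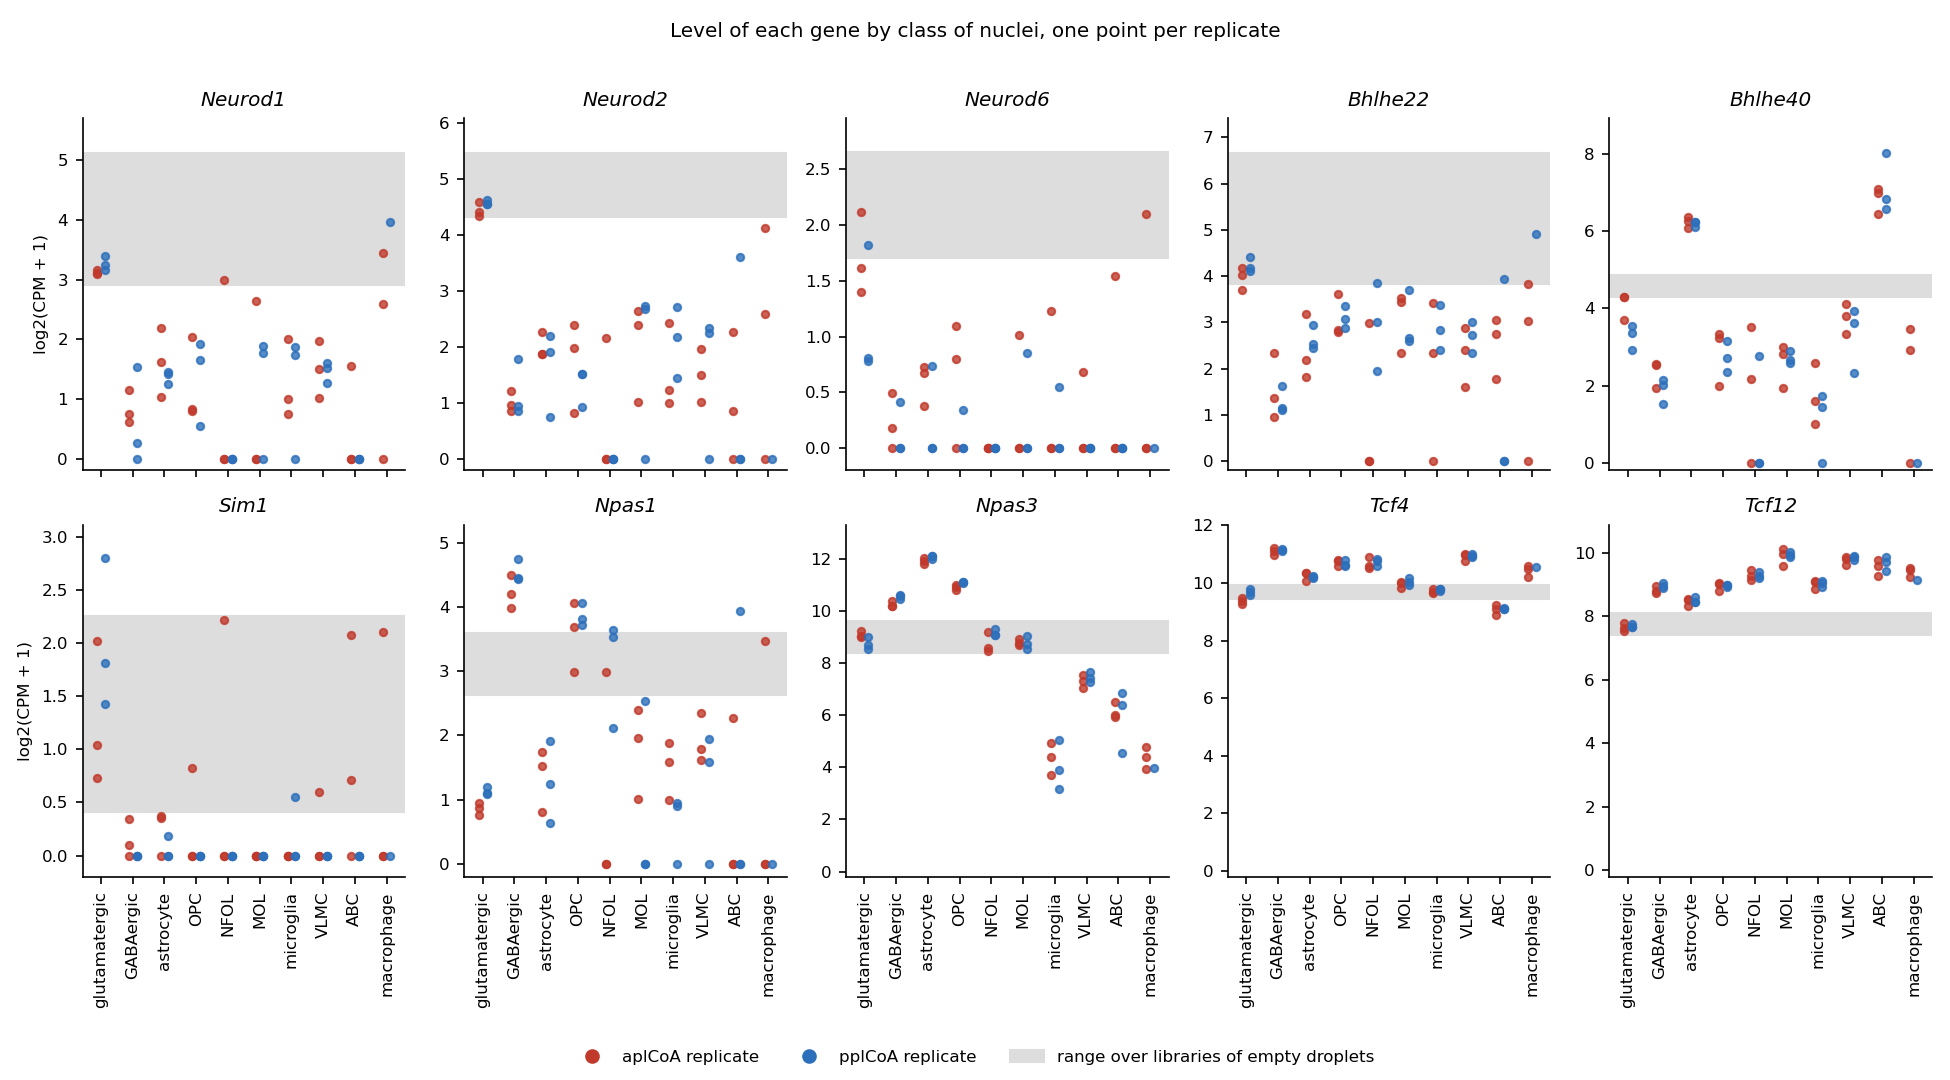
Level of each gene as log2(CPM + 1) in each class of nuclei, with 1 point per replicate of at least 20 nuclei (red, aplCoA; blue, pplCoA) and a grey band for the range over the 7 libraries of empty droplets. Neurod2 stands at 19.3 to 23.5 CPM in glutamatergic nuclei and below that in every other class, whereas Npas3 is highest in astrocytes and Bhlhe40 in ABCs and astrocytes.

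Glutamatergic nuclei fell into 15 clusters, numbered by size, and Neurod2, Tcf4 and Npas3 differed more between some of them than between the replicates of 1 cluster. For Tcf12 the cluster means ran only from 176 CPM in cluster 11 to 280.3 CPM in cluster 13. Slc17a7 (VGluT1) and Slc17a6 (VGluT2), the vesicular glutamate transporters, varied between the clusters: cluster 1 had 269 CPM of Slc17a7 and 2.61 CPM of Slc17a6, while cluster 10, led by Ebf1, had 11.3 and 224 CPM. Other clusters were mixed, such as cluster 6, with 83.2 and 119 CPM and UMIs of both genes in 27.2% of nuclei, and cluster 9, with 135 and 80.7 CPM and both in 29.6%. Neurod2 averaged 28.9 ± 2.33 CPM in cluster 1 (SD, n = 6) and 0.856 ± 1.14 CPM in cluster 10 (n = 4 replicates with at least 20 nuclei). Tcf4 ran from 65.1 ± 14.1 CPM in cluster 10 (n = 4) to 1358 ± 56.7 CPM in cluster 7 (n = 5), which was led by Mybpc1. In cluster 4, led by Meis1 and Foxp2 and also rich in Slc17a6, Tcf4 averaged 122 ± 6.56 CPM and Neurod2 1.76 ± 0.924 CPM (n = 4), and in cluster 6, led by Vwa5b1, they averaged 220.04 ± 14.1 CPM and 9.50 ± 3.03 CPM (n = 4).

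Over the 14 clusters with at least 50 nuclei, whose means share libraries and depth, the Pearson correlation of log2(CPM + 1) with Slc17a7 was 0.98 for Neurod2, 0.90 for Neurod1, 0.86 for Tcf4 and 0.61 for Bhlhe22. With Slc17a6 it was -0.81, -0.58, -0.69 and -0.55. Neurod1 and Neurod2 had a correlation of 0.87 with each other, and Tcf4 had 0.80 with Neurod2 and 0.85 with Bhlhe22. Bhlhe40 (0.46) and Neurod6 (0.49) had positive values with Slc17a6, and Tcf12 had -0.46 with Slc17a7 and 0.17 with Slc17a6. Neurod1 itself ran from 12.5 ± 2.25 CPM in cluster 8 to 0.305 ± 0.609 CPM in cluster 10, and Bhlhe22 from 25.5 ± 9.25 CPM in cluster 5 to 1.80 ± 1.42 CPM in cluster 4.

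Other genes of the 10 marked a few clusters. Npas3 reached 1513 ± 36.8 CPM in cluster 11, led by Prox1, and its range there (1486 to 1586 CPM, n = 6) lay above that of every other glutamatergic cluster, the lowest being cluster 15 at 75.3 ± 11.2 CPM (n = 2). Bhlhe40 was highest in clusters 6 (28.4 ± 3.94 CPM) and 11 (28.0 ± 13.1 CPM) and lowest in cluster 1 (6.78 ± 1.21 CPM). Neurod6 was concentrated in cluster 9, at 21.9 ± 15.1 CPM, cluster 12, at 12.3 ± 2.22 CPM, and cluster 6, at 5.44 ± 3.08 CPM, and averaged at most 1.02 CPM in every other cluster with 20 nuclei in 2 or more replicates.

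Sim1, which is needed for neurons of the paraventricular hypothalamus, led the smallest cluster, 16, of 24 nuclei, with 981 CPM over all of its nuclei. These nuclei numbered 3, 0 and 0 in the aplCoA replicates and 15, 4 and 2 in the pplCoA replicates, too few for a comparison. Outside cluster 16, Sim1 was seen in cluster 6, where aplCoA replicates 1, 2 and 3 had 16.6, 4.77 and 0.296 CPM and pplCoA replicate 1 had 17.1 CPM, and in cluster 7, at 4.83 ± 2.20 CPM (n = 5). Cluster 9 averaged 2.61 ± 5.41 CPM (n = 6), of which pplCoA replicate 2 had 13.6 CPM from 10 UMIs, and cluster 1 averaged 1.02 ± 0.892 CPM.

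**Figure D2:**
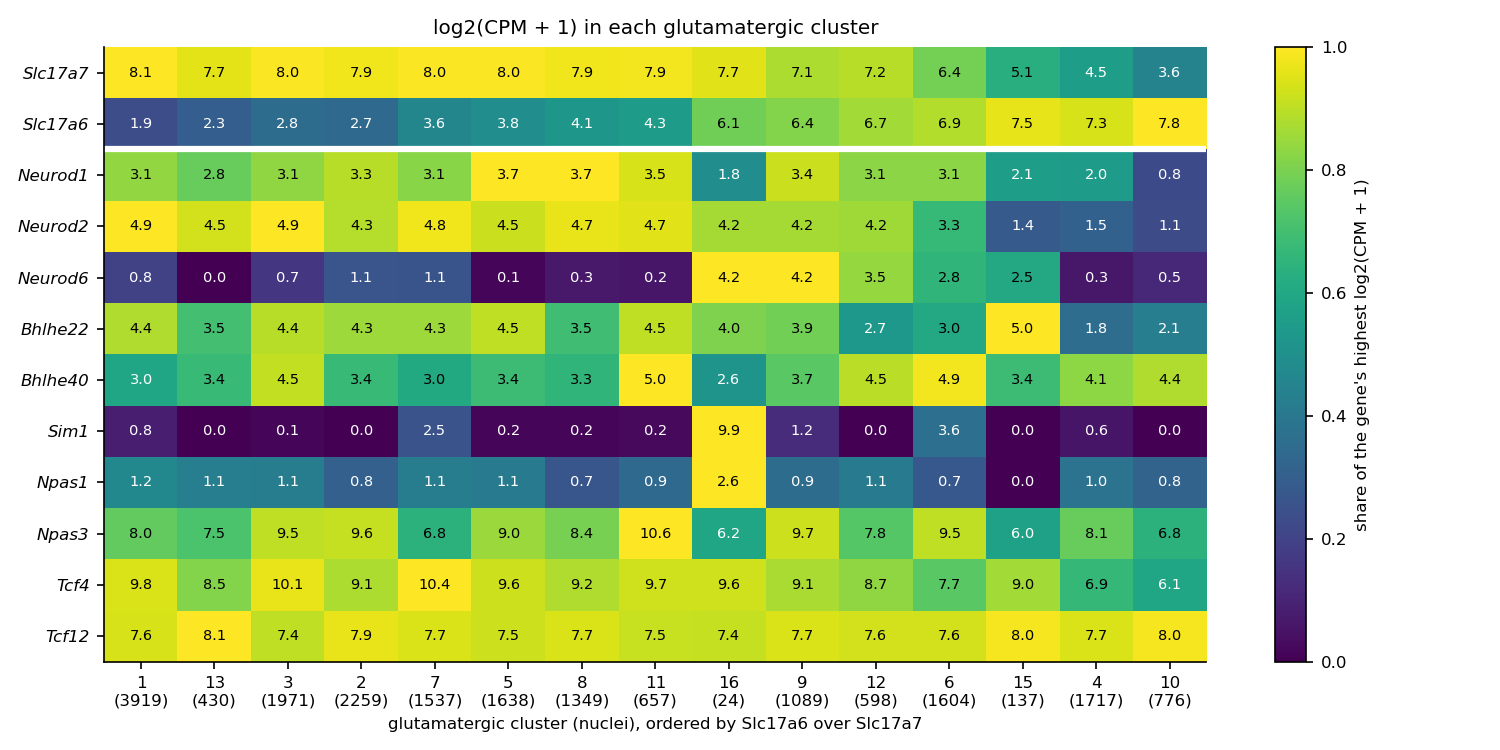
log2(CPM + 1) of Slc17a7, Slc17a6 and the 10 genes over all nuclei of each glutamatergic cluster (number of nuclei in brackets), with clusters ordered from left to right by rising Slc17a6 over Slc17a7 and colour scaled to the highest value of each gene. Neurod2 is lowest in clusters 4, 10 and 15 and Tcf4 in clusters 4 and 10, all at the right, Sim1 reaches its highest value in cluster 16, and Npas3 is highest in cluster 11.

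The genes were then compared between glutamatergic nuclei with at least 1 UMI of Slc17a6 and none of Slc17a7 (Slc17a6-only) and nuclei with the reverse (Slc17a7-only), within each pool of mice. Neurod2, Bhlhe22, Tcf4 and Neurod1 were lower in Slc17a6-only nuclei, and Bhlhe40 was higher. This made 5 of the 7 genes that were tested, since Neurod6, Sim1 and Npas1 were seen in under 10% of the nuclei of either kind, but 48.9% of all 9831 genes passed the same test (edgeR quasi-likelihood, adjusted p under 0.05, pool as a block). Neurod1, Neurod2 and Bhlhe22 entered the test only through Slc17a7-only nuclei, where they were seen in 10.2% to 13.4%, 25.3% to 35.0% and 17.5% to 26.4% of nuclei per pool, so that their count is no support by itself. With genes kept by their total UMIs over all pools instead, which does not look at the kinds, 7183 of 22966 genes passed, and so did Neurod2 (adjusted p = 2.69e-11), Bhlhe22 (1.41e-09) and Neurod1 (1.5e-06), by edgeR. Slc17a6-only nuclei numbered 1456, 244 and 606 in aplCoA replicates 1 to 3 and 207, 39 and 24 in pplCoA replicates 1 to 3, so that the last 2 pools rested on few nuclei.

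Neurod2 had 4.43, 6.79 and 4.32 CPM in Slc17a6-only nuclei of aplCoA replicates 1 to 3 and 5.34, 7.11 and 19.9 CPM in those of pplCoA. In Slc17a7-only nuclei it had 25.5, 28.1 and 26.2 CPM in aplCoA and 24.2, 22.9 and 23.9 CPM in pplCoA. It was lower in Slc17a6-only nuclei in 6 of 6 pools without overlap, and pplCoA replicate 3, where 5 UMIs gave the value, stood nearest to the Slc17a7-only level. The log2 fold change, Slc17a6-only over Slc17a7-only, was -2.46 ± 0.157 (SE), with an adjusted p of 3.22e-07 from edgeR's quasi-likelihood test.

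Bhlhe22 had 5.72, 5.55 and 2.08 CPM in Slc17a6-only nuclei of aplCoA and 7.12, 9.48 and 7.95 CPM in those of pplCoA, against 19.4, 20.5 and 16.6 CPM and 17.6, 17.7 and 20.2 CPM in Slc17a7-only nuclei. The 2 kinds did not overlap (log2 fold change -2.02 ± 0.171, adjusted p = 2.32e-06, edgeR). The Slc17a6-only values of Bhlhe22 in pplCoA replicates 2 and 3 came from 4 and 2 UMIs. For Neurod1, which shares its span with Cerkl, Slc17a6-only nuclei had 4.43, 4.01 and 2.72 CPM in aplCoA and 4.89, 4.74 and 7.95 CPM in pplCoA, and Slc17a7-only nuclei had 8.34 to 9.13 CPM over the 6 pools. These did not overlap either (-1.22 ± 0.151, adjusted p = 4.65e-05, edgeR). The Slc17a6-only values of Neurod1 in pplCoA replicates 2 and 3 came from 2 UMIs each. That of replicate 3, at 7.95 CPM, stood close to the lowest Slc17a7-only pool, at 8.34 CPM.

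Tcf4, the E protein, had 141, 154 and 171 CPM in Slc17a6-only nuclei of aplCoA and 218, 427 and 819 CPM in those of pplCoA, while Slc17a7-only nuclei had 829.7, 903 and 850.03 CPM in aplCoA and 826, 832 and 881 CPM in pplCoA. The kinds did not overlap, and the difference was large in all aplCoA pools and smallest in pplCoA replicate 3, which had 24 Slc17a6-only nuclei (log2 fold change -1.90 ± 0.299, adjusted p = 0.000277, edgeR). With every nucleus thinned to 2000 UMIs before the split, Tcf4 kept its direction (-1.39, adjusted p = 3.05e-05, edgeR), and Neurod1, Neurod2, Bhlhe22 and Bhlhe40 no longer reached the 10% minimum share and were not tested.

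Bhlhe40 had 24.2, 19.7 and 18.2 CPM in Slc17a6-only nuclei of aplCoA and 18.2, 7.11 and 0 CPM in those of pplCoA, against 16.6, 19.2 and 10.6 CPM and 9.44, 9.19 and 6.64 CPM in Slc17a7-only nuclei. It was higher in Slc17a6-only nuclei in 4 of 6 pools, and the kinds overlapped (log2 fold change 0.40 ± 0.139, adjusted p = 0.0339, edgeR). Without pplCoA replicate 1, aplCoA replicate 1 or aplCoA replicate 3 the adjusted p of Bhlhe40 was 0.088, 0.170 or 0.187, and DESeq2 gave 0.298. The call was also lost without the pool as a block (0.127), with doublets kept (0.0552), without the minimum share (0.0738) and with library 1 alone for aplCoA replicate 1 (0.0710), by edgeR. Npas3 (-0.25 ± 0.193, adjusted p = 0.302) and Tcf12 (0.08 ± 0.0614, adjusted p = 0.292) did not pass, and without pplCoA replicate 2 Npas3 did (adjusted p = 0.0137). Npas3 was lower in Slc17a6-only nuclei in all 3 aplCoA pools and higher in all 3 pplCoA pools, by 101 to 262 CPM and by 5.92 to 376 CPM. Tcf12 was higher in Slc17a6-only nuclei in all 3 aplCoA pools and all 3 pplCoA pools, by 34.0 to 41.2 CPM and by 9.65 to 21.2 CPM. Over the pools its 2 kinds overlapped.

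The kinds of nuclei also differed in other measures. Median UMIs per nucleus were 9296 to 12418 in Slc17a6-only nuclei and 11573 to 15950 in Slc17a7-only nuclei. The 5 GABAergic markers summed to 245 to 379 CPM against 96.6 to 119 CPM in aplCoA and to 73.5 to 469 CPM against 30.7 to 85.2 CPM in pplCoA. In aplCoA the markers of OPCs (1674 to 1810 against 1055 to 1333 CPM) and NFOLs (13.3 to 18.9 against 8.01 to 9.47 CPM) did not overlap either. Nor did those of mural cells (18.2 to 20.5 against 11.1 to 14.2 CPM) and ependymal cells (115 to 137 against 87.7 to 92.6 CPM). In pplCoA these lists overlapped. Slc17a6-only nuclei lay mainly in clusters 4 (38.2%), 10 (22.1%), 6 (21.0%) and 9 (9.39%). For Tcf4 the fit on thinned nuclei, given above, kept the call at 1 depth, while Neurod1, Neurod2, Bhlhe22 and Bhlhe40 could not be tested there. The part of the marker lists in the differences was not tested.

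**Figure D3:**
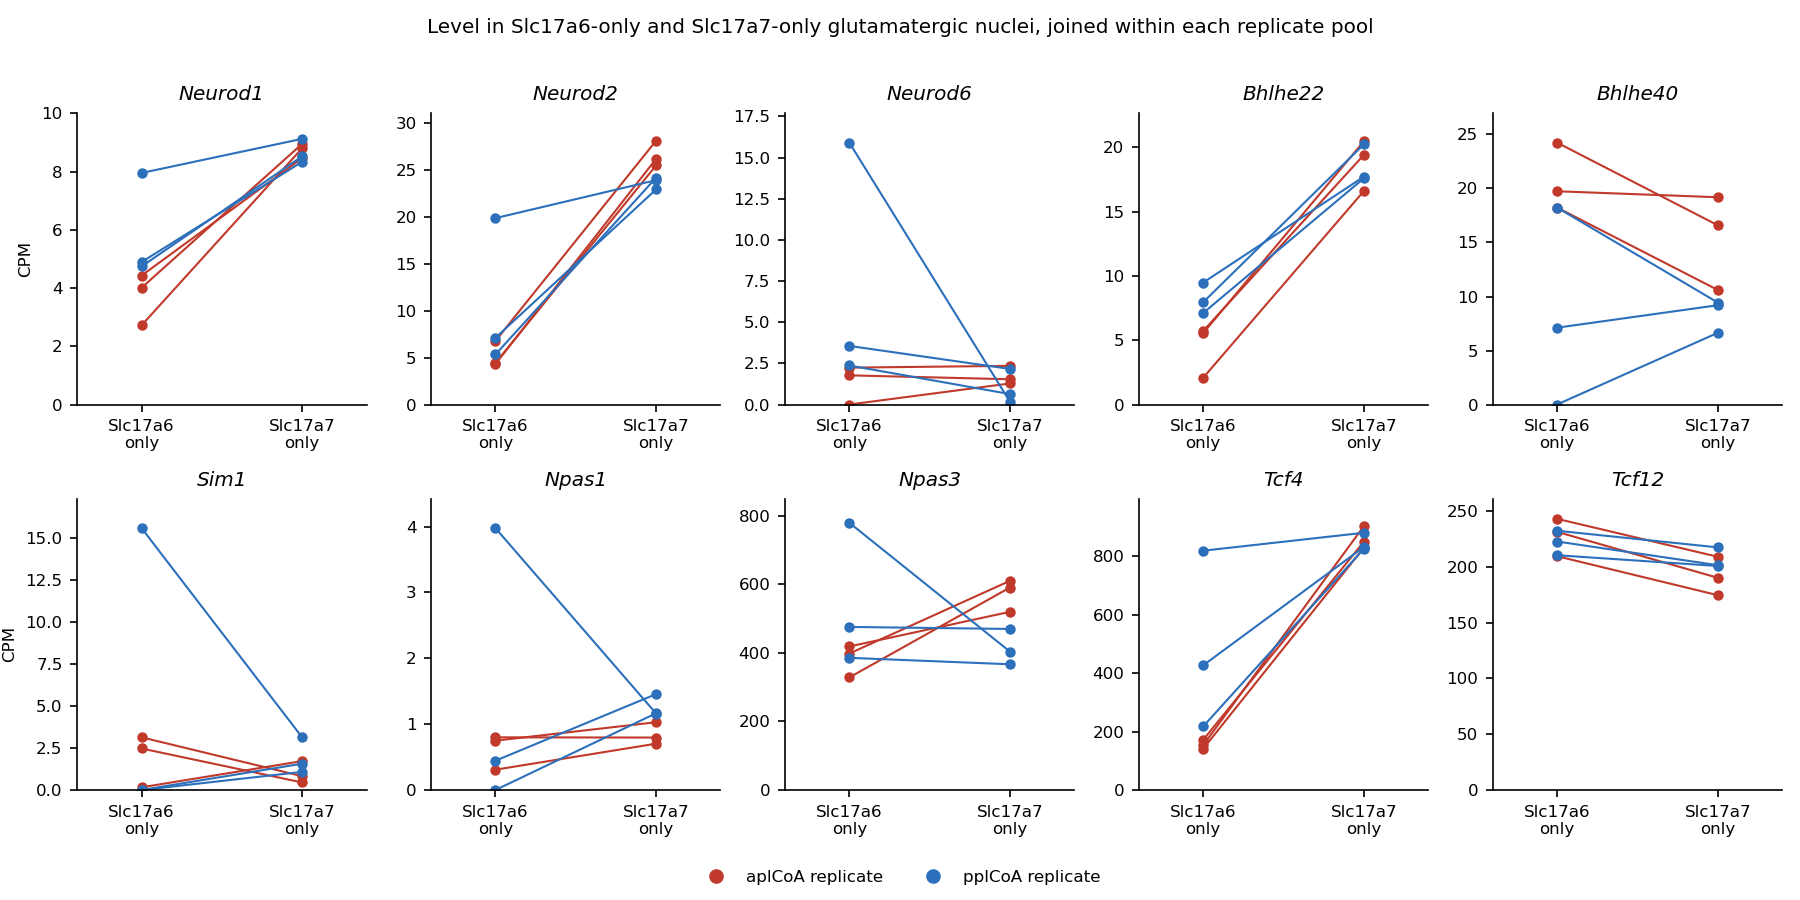
Level in CPM of each gene in Slc17a6-only and Slc17a7-only glutamatergic nuclei, with a line joining the 2 values of each replicate pool (red, aplCoA; blue, pplCoA). The lines of Neurod1, Neurod2, Bhlhe22 and Tcf4 rise towards Slc17a7-only nuclei in 6 of 6 pools, and the pplCoA replicate 3 line of Tcf4 is nearly flat, from 819 to 881 CPM.

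Between domains, over all glutamatergic nuclei, Bhlhe40 was higher and Tcf4 lower in aplCoA. These were 2 of the 7 genes tested, where 21.0% of all 9716 genes passed (edgeR quasi-likelihood, adjusted p under 0.05), so the share of the bHLH genes was near the background. In such sums, fewer nuclei of a kind and less RNA per nucleus cannot be told apart. The 5 GABAergic markers summed to 155 to 205 CPM in glutamatergic nuclei of aplCoA and 44.7 to 123 CPM in those of pplCoA, and the 5 VLMC markers to 4.04 to 6.60 CPM and 8.27 to 20.5 CPM. Also without overlap, aplCoA first, were the markers of NFOLs (10.4 to 12.6 and 7.11 to 9.53 CPM) and of mural cells (13.6 to 15.8 and 16.2 to 20.5 CPM). So were the glutamatergic markers (2358 to 2448 and 2141 to 2310 CPM). Their part in the results was not tested.

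Bhlhe40 had 18.6, 18.7 and 11.9 CPM in aplCoA replicates 1 to 3 and 10.7, 9.33 and 6.61 CPM in pplCoA replicates 1 to 3. The domains did not overlap, with the lowest aplCoA replicate close to the highest pplCoA replicate (log2 fold change, aplCoA over pplCoA, 0.79 ± 0.211 (SE), adjusted p = 0.0313, edgeR). Empty droplets held 20.9 to 28.2 CPM of Bhlhe40 in the aplCoA libraries and 18.7 to 22.2 CPM in the pplCoA libraries, above the glutamatergic level of the same replicate in 6 of 6, and their part in the result was not tested. The adjusted p of Bhlhe40 rose to 0.114 or 0.103 when the first or the second aplCoA replicate was left out, and to 0.0863 or 0.0876 when the second or the third pplCoA replicate was. Averaged with equal weight over the 5 clusters with at least 20 nuclei in all 6 replicates (clusters 1, 2, 8, 9 and 11), Bhlhe40 had 15.4 ± 4.47 CPM in aplCoA and 10.2 ± 3.19 CPM in pplCoA (SD, n = 3). The replicates then overlapped, at 15.8, 19.6 and 10.7 CPM in aplCoA and 13.5, 10.1 and 7.09 CPM in pplCoA. Its mean was higher in aplCoA in 6 of the 7 clusters that had at least 2 such replicates per domain. These clusters share the same pools, and the domains were free of overlap only in cluster 2 (9.60 to 13.3 CPM in aplCoA, 7.84 to 9.46 CPM in pplCoA). Its relative Bhlhe41, from the wider list of bHLH genes, was also higher in aplCoA, with 20.9, 13.8 and 20.4 CPM there and 11.3, 11.8 and 8.76 CPM in pplCoA (0.71 ± 0.167, adjusted p = 0.0202, edgeR).

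Tcf4 had 621, 718 and 668 CPM in aplCoA and 769, 827 and 879.8 CPM in pplCoA, without overlap (log2 fold change -0.38 ± 0.0926, adjusted p = 0.0221, edgeR). Leaving out aplCoA replicate 1 gave an adjusted p of 0.0653, and leaving out the second or the third pplCoA replicate gave 0.0785 or 0.0876. Glutamatergic nuclei also lay in different clusters by domain. Clusters 4, 6 and 10, picked for their low Tcf4, held 36.5%, 26.2% and 27.1% of them in aplCoA replicates 1 to 3. In those of pplCoA these clusters held 9.08%, 0.635% and 0.495%. The part of this makeup in the result was not tested. With clusters 1, 2, 8, 9 and 11 weighted equally, Tcf4 had 672 ± 38.2 CPM in aplCoA and 747 ± 97.3 CPM in pplCoA (SD, n = 3), where pplCoA replicate 3 had 857 CPM and the other replicates 643 to 715 CPM. Within single clusters the log2 ratio of the domain means had a median of -0.03 over 7 clusters (range -0.58 to 0.10).

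Etv1, Fign and Sim1 mark neighbouring regions rather than plCoA, by the in situ images the study used. Without the clusters that hold these genes among their leading ones, 4 of the 7 genes passed, where 27.2% of all 9702 genes did: Tcf4 (-0.75, adjusted p = 0.00436), Bhlhe22 (-0.60, adjusted p = 0.0138), Neurod2 (-0.41, adjusted p = 0.0145) and, in the other direction, Bhlhe40 (0.68, adjusted p = 0.0363). Of the clusters left out, cluster 3, which holds Fign, had 1971 nuclei, 95.7% of them from aplCoA. Its levels were 1071 CPM of Tcf4, 28.3 CPM of Neurod2, 20.8 CPM of Bhlhe22 and 22.4 CPM of Bhlhe40. Clusters 13 and 16 had 430 and 24 nuclei, 25.6% and 12.5% of them from aplCoA. The part of this makeup in the calls was not tested. Over all glutamatergic nuclei, Bhlhe22 (-0.36 ± 0.145, adjusted p = 0.115), Neurod1 (-0.25 ± 0.112, adjusted p = 0.160), Neurod2 (-0.21 ± 0.0949, adjusted p = 0.159), Npas3 (0.25 ± 0.116, adjusted p = 0.167) and Tcf12 (-0.13 ± 0.0831, adjusted p = 0.315) did not pass. Pooled over replicates, Neurod1 reached the minimum share of nuclei in pplCoA only. Neurod2, for instance, had 19.3, 23.0 and 20.3 CPM in aplCoA and 22.4, 22.4 and 23.5 CPM in pplCoA.

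Neurod6, Sim1 and Npas1 were too sparse in glutamatergic nuclei to be tested, and their values are given as they stand. Neurod6 had 2.06, 1.64 and 3.33 CPM in aplCoA and 2.54, 0.722 and 0.751 CPM in pplCoA. Sim1 had 3.05, 0.655 and 1.05 CPM in aplCoA and 5.95, 2.51 and 1.68 CPM in pplCoA, and the 24 nuclei of cluster 16 gave 65 UMIs in aplCoA replicate 1 and 231, 62 and 30 UMIs in the pplCoA replicates, of 768 in all. The domains overlapped for both genes. Npas1 had 0.696 to 0.935 CPM in aplCoA and 1.13 to 1.30 CPM in pplCoA, without overlap, at levels below those of the empty droplets.

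When Slc17a7-only nuclei alone were compared between domains, 1 of 7 genes passed, where 9.35% of all 9789 genes did. This was Npas3, with 591, 611 and 519.98 CPM in aplCoA and 470, 404 and 367 CPM in pplCoA, without overlap (log2 fold change 0.43 ± 0.104, adjusted p = 0.0394, edgeR). The call of Npas3 was lost when aplCoA replicate 1 or 2, or pplCoA replicate 2 or 3, was left out (adjusted p 0.105 to 0.148), and in each of these fits 0 genes of the whole table passed. Slc17a7-only nuclei lay in different clusters by domain: cluster 3 (708 CPM of Npas3) held 27.1% of them in aplCoA and 1.21% in pplCoA, cluster 5 (577 CPM) held 2.08% and 18.0%, and cluster 7 (109 CPM) held 6.53% and 13.1%. The part of this makeup in the result was not tested. With equal weight to clusters 1, 2, 8, 9 and 11, which leaves those 3 out, Npas3 stood at 760.1 ± 31.7 CPM in aplCoA and 757 ± 37.0 CPM in pplCoA over all of their nuclei (SD, n = 3). In these Slc17a7-only nuclei Tcf4 had a log2 fold change of -0.02 ± 0.0707 (adjusted p = 0.897) and Bhlhe40 of 0.81 ± 0.220 (adjusted p = 0.0537). DESeq2, the likelihood ratio test and the omission of the minimum share each also called Bhlhe40. Pooled over replicates, Bhlhe40 reached the 10% minimum share in aplCoA only. It was seen in 10.1% to 21.9% of nuclei per aplCoA replicate and in 7.17% to 11.2% per pplCoA replicate. The calls by DESeq2 and the likelihood ratio test, made on the same genes, are therefore no support by themselves.

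In Slc17a6-only nuclei, 0 of 4 genes passed by edgeR's quasi-likelihood test, where 0.461% of all 9337 genes did. Tcf4 came nearest, at -1.64 ± 0.351 (adjusted p = 0.0580), and was called by DESeq2 and by the likelihood ratio test, while Npas3 had -0.60 ± 0.214 (adjusted p = 0.218). Both had an unadjusted p under 0.05, and Bhlhe40 and Tcf12 did not. The clusters behind these nuclei differed by domain: cluster 4, low in Tcf4 (122 CPM), held 39.8% of them in aplCoA and 24.8% in pplCoA, whereas cluster 9 (575 CPM) held 7.72% and 23.7% and cluster 5 (750.4 CPM) 0% and 5.19%. The part of this makeup in the values of Tcf4 was not tested. The domain difference itself was compared between the 2 kinds of nuclei, and no gene passed (0% of 9012 genes, of which 615 had an unadjusted p under 0.05). For Tcf4 the difference of the log2 fold changes was -1.50 ± 0.355 and for Npas3 -1.004 ± 0.243, each with an adjusted p of 0.343. The likelihood ratio test called both and DESeq2 neither.

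**Figure D4:**
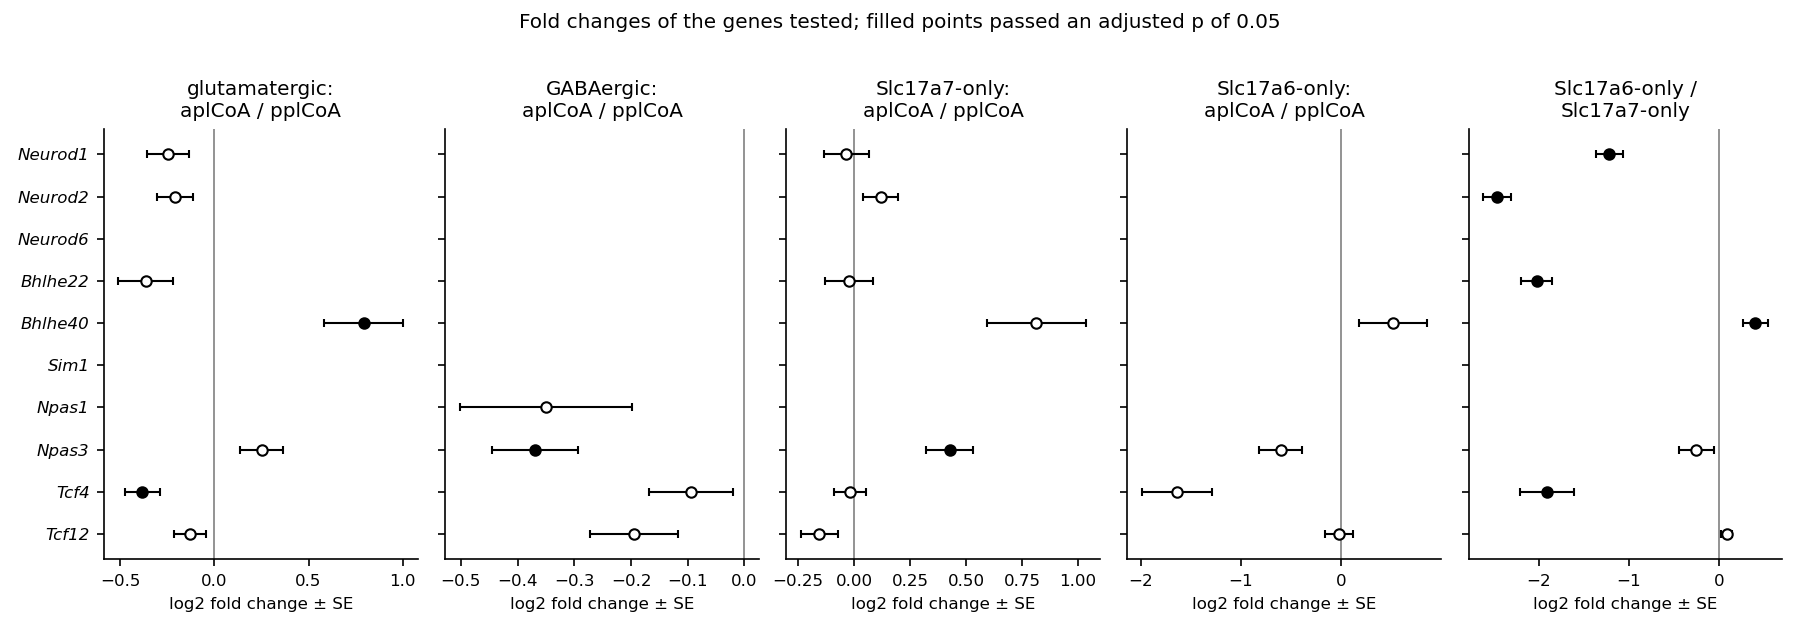
log2 fold changes with standard errors (edgeR) of the genes tested in each comparison, filled where the adjusted p was under 0.05; the first 4 panels give aplCoA over pplCoA and the last Slc17a6-only over Slc17a7-only. Between the 2 kinds of glutamatergic nuclei Neurod2, Bhlhe22, Tcf4 and Neurod1 lie between -2.46 and -1.22, and between domains over all glutamatergic nuclei the 7 genes lie between -0.38 and 0.79.

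Among GABAergic nuclei, 4 genes were tested between domains, and Npas3 was lower in aplCoA, whereas 10.3% of all 8762 genes passed. It had 1148, 1155 and 1319 CPM in aplCoA replicates 1 to 3 and 1419, 1577 and 1511 CPM in pplCoA replicates 1 to 3, without overlap (log2 fold change -0.37 ± 0.0756, adjusted p = 0.00841, edgeR). Without pplCoA replicate 2 the adjusted p of Npas3 was 0.0581. Npas1 had 21.6, 14.8 and 17.3 CPM in aplCoA and 25.7, 20.7 and 20.9 CPM in pplCoA, which overlapped (-0.35 ± 0.152, adjusted p = 0.187). Tcf12 (-0.20 ± 0.0775, adjusted p = 0.141) and Tcf4 (-0.09 ± 0.0742, adjusted p = 0.518) did not pass.

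Npas1 and Npas3 were concentrated in the same 3 of the 13 GABAergic clusters. Cluster 8, led by Syt6 and high in Cnr1 and Cck, had 141 ± 22.7 CPM of Npas1 and 5166 ± 653 CPM of Npas3 (SD, n = 6). In cluster 6 the averages were 83.4 ± 20.5 and 3593 ± 245 CPM (n = 5), and in cluster 3, led by Vip, 42.4 ± 12.9 and 3927 ± 439 CPM (n = 6). In the other clusters with 20 nuclei in at least 2 replicates, Npas1 averaged at most 4.01 CPM and Npas3 at most 887 CPM. Tcf4, by contrast, averaged between 1571 and 3021 CPM in all of these clusters, and Tcf12 between 334 and 909.8 CPM, with its highest level in cluster 6.

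Clusters 3, 6 and 8, picked for these levels, held 24.6%, 16.1% and 21.2% of GABAergic nuclei in aplCoA replicates 1 to 3 and 30.8%, 41.3% and 39.9% in pplCoA replicates 1 to 3. With equal weight to the 7 clusters that had at least 20 nuclei in all 6 replicates, Npas3 had 1367, 1599 and 1788 CPM in aplCoA and 1604, 1689 and 1570.5 CPM in pplCoA, which overlapped. Within cluster 8 its domain means were 4972 and 5359.9 CPM, within cluster 3 they were 4042 and 3811 CPM, and within cluster 6 they were 3712 and 3514 CPM, so that Npas3 averaged higher in aplCoA in 2 of these 3 clusters. The 7 glutamatergic markers summed to 258 to 318 CPM in GABAergic nuclei of aplCoA and 145 to 247 CPM in those of pplCoA. Markers of OPCs had 723 to 796 CPM in aplCoA and 832 to 915 CPM in pplCoA, and those of mural cells 15.9 to 18.3 and 22.6 to 29.8 CPM. Markers of astrocytes had 120 to 135 and 109 to 115 CPM, and those of macrophages 1.85 to 4.57 and 1.01 to 1.78 CPM. The parts of these markers and of the makeup by cluster in the result were not tested.

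**Figure D5:**
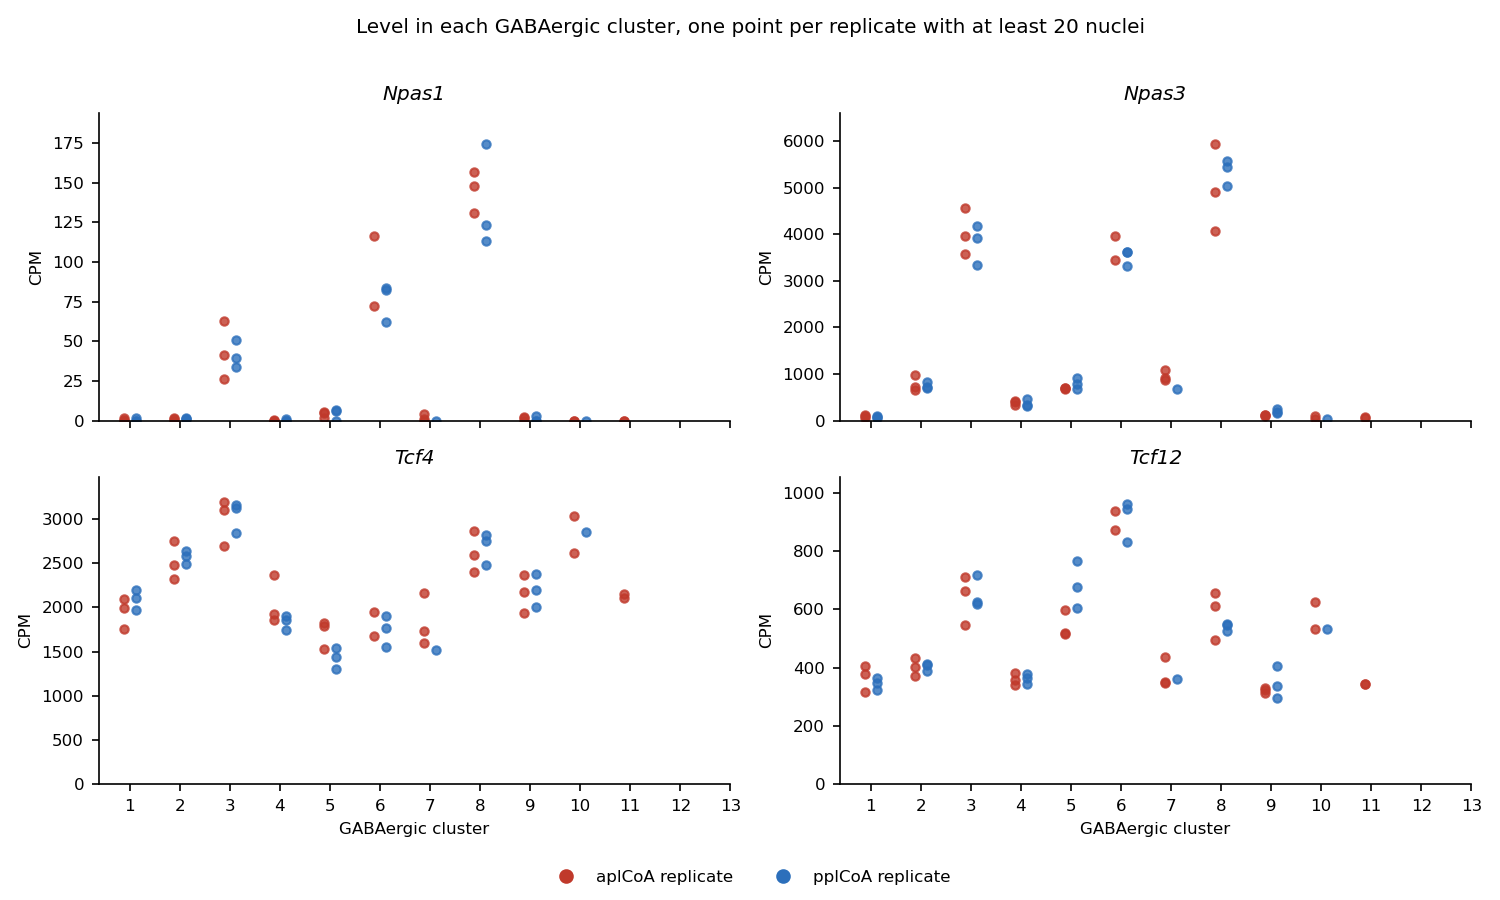
Level in CPM of Npas1, Npas3, Tcf4 and Tcf12 in each GABAergic cluster, with 1 point per replicate of at least 20 nuclei (red, aplCoA; blue, pplCoA). Npas1 and Npas3 are high in clusters 3, 6 and 8 in both domains, while the lowest replicate of Tcf4 in any cluster shown has 1305 CPM.

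The fitted domain difference of Npas3 was 0.25 in glutamatergic nuclei, which did not pass, and -0.37 in GABAergic nuclei, and the difference between them was tested. It was 0.65 ± 0.137 on the log2 scale, glutamatergic minus GABAergic (adjusted p = 0.0261, edgeR), 1 of 3 genes tested, where 5.16% of all 8437 genes passed. The call was lost when aplCoA replicate 1 or 2, or pplCoA replicate 2 or 3, was left out (adjusted p 0.0872 to 0.118). With clusters weighted equally, as given above, the domain means of Npas3 were 760.1 and 757 CPM in glutamatergic nuclei and 1585 and 1621 CPM in GABAergic nuclei, aplCoA first, and the domains overlapped in both. For Tcf4 the difference was -0.27 ± 0.0871 (adjusted p = 0.116) and for Tcf12 0.08 ± 0.0627 (adjusted p = 0.541).

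Outside neurons, none of the 22 tests of these genes in 7 classes passed by edgeR or by DESeq2. The classes had 6.53% (OPCs), 2.41% (MOLs), 0.617% (astrocytes), 0.101% (ABCs), 0.0174% (VLMCs) and 0% (NFOLs and microglia) of genes past the threshold. Npas3 in OPCs (log2 fold change -0.21 ± 0.0753, adjusted p = 0.108) had the only unadjusted p under 0.05. In astrocytes, where it was most abundant, Npas3 had -0.16 ± 0.0815 (adjusted p = 0.386) and Bhlhe40 0.04 ± 0.0922 (adjusted p = 0.882).

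The wider list held 81 other bHLH genes. In glutamatergic nuclei 26 of them were tested between domains, and 4 passed, a share below the 21.0% of all genes. Of these, 2 were higher and 2 lower in aplCoA: Bhlhe41, given above, Arnt2, a general partner of bHLH-PAS proteins (0.51 ± 0.125), Mitf (-0.53 ± 0.114) and Ncoa1, a nuclear receptor coactivator (-0.26 ± 0.0674). The median log2 fold change of the list was -0.01, beside 0.00 over all genes tested. Arnt2 had 81.8, 83.8 and 67.1 CPM in aplCoA and 61.6, 46.99 and 46.0 CPM in pplCoA, and it was also the 1 of 24 listed genes tested, beside 5.16% of all genes, whose domain difference differed between glutamatergic and GABAergic nuclei (0.67 ± 0.116, adjusted p = 0.0110, edgeR). In GABAergic nuclei 0 of 24 listed genes passed, where 10.3% of all genes did. In Slc17a7-only nuclei Mitf (-0.38 ± 0.0934) was the only 1 of 27, against 9.35% of all genes, and in Slc17a6-only nuclei 0 of 23 passed, against 0.461%.

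Between the 2 kinds of glutamatergic nuclei, 27 listed genes were tested, and 6 were higher and 7 lower in Slc17a6-only nuclei, a share near the 48.9% of all genes. Id4, an inhibitor that pairs with E proteins and keeps them from DNA, had the largest change, with 11.6, 20.1 and 17.9 CPM in Slc17a6-only nuclei of aplCoA and 6.23, 4.74 and 15.9 CPM in those of pplCoA. In Slc17a7-only nuclei Id4 had 1.41 to 2.33 CPM in aplCoA and 1.57 to 2.16 CPM in pplCoA, so that the kinds did not overlap, but Id4 entered the test only through Slc17a6-only nuclei (log2 fold change 2.59 ± 0.224, adjusted p = 2.63e-06, edgeR). Bhlhe41 (1.02 ± 0.124), Srebf2 (0.47 ± 0.0908) and Arntl2 (0.46 ± 0.0605) were also higher, and Ahr, the aryl hydrocarbon receptor (-1.36 ± 0.151), Twist2 (-0.84 ± 0.143), Mitf (-0.81 ± 0.150) and Hif1a (-0.45 ± 0.0808) were lower. The minimum share can be met in 1 kind of nuclei alone, so these calls are no support by themselves. Outside neurons, Hes5 was higher in aplCoA OPCs (0.72 ± 0.133), as 1 of 24 listed genes tested beside 6.53% of all genes, and Olig1 in aplCoA MOLs (0.74 ± 0.171), as 1 of 19 beside 2.41%.

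The genes most like each of the 10 were taken from the 3 highest Pearson correlations of log2(CPM + 1) over 33 clusters and classes, among 12370 genes. Neurod2 was most like Slc17a7 (0.96), Cerkl and Crym, and Neurod1 like Cerkl (0.93), whose span holds it, Slc17a7 (0.93) and Itpka. Bhlhe22 was most like Plxnd1 (0.89), Nptx1 and Rasl10a, and Neurod6 like Siae (0.71), Samd3 and Lncenc1. Npas1 was most like Htr3a (0.86), a serotonin receptor subunit of interneurons, followed by Asic4 and Rgs12. The 2 genes most like Npas3, 1700060O08Rik (0.95) and 1700030L22Rik (0.91), are annotated on the opposite strand inside or across its span. Whether reads of the 3 were kept apart by strand was not tested. The next gene most like Npas3 was Ptprz1 (0.75). Bhlhe40 was most like Rfx2 (0.82) and Lrig1 (0.77), both highest in astrocytes. Tcf4 was most like Gm5141 (0.76), Sox2ot and Metap1d, Tcf12 like B3gat3 (0.88), Rdx and Smdt1, and Sim1 like Gm36431 (0.73), Vwa5b1 and Mybpc1.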

How the data were processed

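Nuclei were captured with the 10x 3′ v3.1 kit. Per the submitters' processing notes, the authors made the deposited UMI counts with Cell Ranger 5.0.0 on mm10 (the matrix headers name Cell Ranger 4), and the matrices hold all barcodes. Barcodes with at least 1000 genes were kept, extreme UMI totals and mitochondrial or ribosomal percentages (5 deviations or interquartile ranges) were removed, and so were doublets by Scrublet score at 1% per 1000 nuclei. Clusters were made with scanpy 1.11.5 (Pearson residuals, 5000 variable genes, Leiden, resolution 1.0 and 0.4 within a class) without the 10 genes. UMIs were summed per replicate and tested with edgeR 4.0.16 (quasi-likelihood, TMM) on genes seen in at least 10% of nuclei of either group, with Benjamini-Hochberg adjustment over all genes tested and a threshold of 0.05; DESeq2 1.42.0 was an alternative. SE is the absolute log2 fold change over the square root of F. The script was tested on simulated data. p-values of the domain comparisons measure the spread between 3 replicate pools per domain. The pool was a block between kinds of nuclei, and where domain differences were compared between classes or kinds. There they measure the spread of differences within the 6 pools. The members and lists were chosen with earlier results of these data known. Named were the 10 genes, at most 8 other bHLH genes per comparison, by size of change, and the 3 most similar genes, of which 1 is not reported here.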

Additional observations from a re-analysis of the deposited data

Results flagged for a closer look

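The gap of the highest or lowest of 6 pools to the nearest other was tested for the difference between Slc17a6-only and Slc17a7-only nuclei in each of the 10 genes, and chance flags about 1 in 20 such groups of equal spread. The pools here held 24 to 1456 Slc17a6-only nuclei, so their counting error was unequal and that rate may not hold. In pplCoA replicate 3, which had 24 Slc17a6-only nuclei, the difference was -4.05 CPM for Neurod2 (5 UMIs in Slc17a6-only nuclei), 15.7 CPM for Neurod6 (4 UMIs) and 2.82 CPM for Npas1 (1 UMI), apart from the other pools. In pplCoA replicate 1, with 207 such nuclei, Sim1 stood apart at 12.4 CPM (35 UMIs). The domain difference of Npas3 differed between glutamatergic and GABAergic nuclei, by 0.65 on the log2 scale (adjusted p = 0.0261, edgeR's quasi-likelihood test). The domains did not overlap in either class, with the higher replicates from aplCoA in glutamatergic and from pplCoA in GABAergic nuclei, but they overlapped in both classes when clusters were weighted equally. In glutamatergic nuclei the lowest aplCoA replicate lay close to the highest pplCoA replicate. The domain averages there were 543 ± 42.1 CPM in aplCoA and 432 ± 69.9 CPM in pplCoA (SD, n = 3). What lies behind these values was not tested.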

How the results depend on the processing

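Over the 10 calls of single genes, 119 of 147 alternatives kept the call, 28 lost it, and none changed its direction. Fits in which a gene was not tested were not counted, such as the thinned fit for Neurod1, Neurod2, Bhlhe22 and Bhlhe40. The calls of Neurod1, Neurod2 and Bhlhe22 between kinds of nuclei were each kept in 9 of 9 processing alternatives and 6 of 6 leave-outs. Since these genes entered the main test only through Slc17a7-only nuclei, the count of 119 is no support by itself. In glutamatergic nuclei 2 genes passed, and 1 with library 2 alone of aplCoA replicate 1, 0 at an adjusted p under 0.01 with a 1.5-fold change, and 4 without the clusters holding Sim1, Etv1 or Fign, with 0 to 3 when a replicate was left out. With the cluster of 145 nuclei kept in the class, an alternative chosen after seeing the data, 2 passed. In GABAergic nuclei the strict threshold gave 0 and leaving out replicates 0 to 1. Between Slc17a6-only and Slc17a7-only nuclei, thinning gave 1, and leaving out pools 4 to 6. In Slc17a7-only nuclei the likelihood ratio test, DESeq2 and no minimum share each gave 2, and leave-outs 0 to 2. In Slc17a6-only nuclei these gave 1, 1 and 2, and leave-outs 0 to 1. For the difference between classes DESeq2 and no minimum share gave 2, and leave-outs 0 to 2; for that between kinds of nuclei the likelihood ratio test and no minimum share gave 2, and leave-outs 0 to 2. Outside neurons every count was 0. The cause was not tested.

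Whether replicate numbers pair the samples is not stated. Correlations of same-numbered deviations lay between -0.0679 and 0.105 in glutamatergic and -0.161 and 0.0124 in GABAergic nuclei. Those of differently numbered replicates ran from -0.199 to 0.175 and from -0.179 to 0.198, so that with 3 replicates per domain the correlations cannot decide this. With the replicate block, 2 genes passed in glutamatergic, 1 in GABAergic, 2 in Slc17a7-only and 1 in Slc17a6-only nuclei; without the pool block, 4 passed between kinds of nuclei.

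Over all genes, the 2041 calls in glutamatergic nuclei became 3133 without the minimum share, 510 under the strict threshold and 865 to 2434 without a replicate. The 904 in GABAergic nuclei became 142 with library 1 alone, 221 under the strict threshold and 292 to 863 without a replicate. Between kinds of nuclei, thinning gave 1335 calls in place of 4811. In Slc17a7-only nuclei 915 became 1522 by the likelihood ratio test, 1445 by DESeq2 and 0 to 1467 in leave-outs. In Slc17a6-only nuclei 43 became 457, 145, 236 without the minimum share, 178 with the replicate block and 0 to 372 in leave-outs. For the difference between classes 435 became 744, 1040 without the minimum share and 142 to 891 in leave-outs, and for that between kinds of nuclei 0 became 75, 22 by DESeq2, 227 without the minimum share and 0 to 149 in leave-outs. Neurod6, Sim1 and Npas1 had 531, 768 and 270 UMIs in all in glutamatergic nuclei, and the part of depth in these counts was not tested.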
